A study of Mus musculus with 10 samples.

Results

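Contacts between different chromosomes were described for the pairs of 1 Mb bins that stood in both of the deposited interaction lists, one made from naive B cells and one from plasma cells. A pair was a member where the same 2 bins, on 2 different autosomes, were listed for both cell types, and each pair was counted once whichever bin came first. The rule left 15991 members, out of 84839 autosomal interchromosomal pairs listed for at least 1 cell type. The members were therefore chosen by the contact readout of both libraries, and their reads over expected are given as a description, with no test.

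In the nucleus each chromosome keeps largely to a territory of its own, and most contacts are made within it. Stretches of open, active chromatin (the A compartment) tend to meet other active stretches, on the same or another chromosome, and silent stretches (the B compartment) tend to meet silent ones. Gene-dense active stretches of different chromosomes are known to gather around nuclear speckles, bodies rich in splicing factors. Silent stretches and the ribosomal RNA gene arrays are known to gather at the nucleolus, and the segments next to centromeres, which in the mouse lie at 1 end of each autosome, cluster with each other.

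Contacts had been measured with TCC (tethered conformation capture), a Hi-C assay in which crosslinked chromatin is cut (here with MboI), joined while bound to a surface and sequenced as read pairs. All mice were C57BL/6. With a single library of each kind for each cell type, differences below have no replicate check, and intervals cover counting error only. The naive TCC library came from CD23+ B cells of wild-type mice, purified on magnetic beads, and the plasma library from Blimp-GFP mice, which carry a reporter of the gene for Blimp-1, the master factor of plasma cells; 10000000 cells were used for each. Labels of the plasma library conflict: the source field names cells sorted ex vivo, and the protocol a culture of CD23+ cells for 3 days with 10 µg/ml of LPS, a bacterial product that makes B cells divide and secrete antibody, followed by a sort for GFP. ATAC-seq, which maps open chromatin, had been run on 50000 wild-type cells per library, CD23+ IgD+ spleen cells for naive B and B220- CD138+ bone marrow cells for plasma, so the plasma ATAC and TCC libraries need not come from the same source. RNA-seq, used here for marker genes only, had 1 wild-type library per cell type, and its plasma labels conflict in a like way (activation in culture against a bone marrow sort).

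In the RNA libraries Fcer2a, the naive B cell marker that encodes CD23, went from 1062 TPM (a transcript abundance corrected for length) in naive to 6.78 TPM in plasma, and Ms4a1, which encodes the B cell surface protein CD20, from 1323 to 214 TPM. Of the plasma markers, Prdm1, the gene for Blimp-1, went from 2.29 to 249 TPM, Xbp1, the secretory stress factor, from 109 to 939 TPM, and Irf4 from 96.6 to 221 TPM. Sdc1, the gene for CD138, had 11.1 TPM in naive and 5.38 TPM in plasma. In such bulk libraries, fewer cells of a type and less RNA per cell cannot be told apart. The listed autosomal pairs held 1008117 read pairs in naive and 732630 in plasma, of which members held 421998 and 299074.

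The naive list had 51456 pairs, 1.87% of the 2757623 possible pairs of the 2417 mapped autosomal bins. The plasma list had 49374 pairs, 1.79% of those possible. Members made up 31.1% of the naive list (exact binomial interval 30.7 to 31.5%), 32.4% of the plasma list (31.97 to 32.80%) and 0.58% of all possible pairs. These intervals take the pairs as independent, which they are not, since pairs share bins, so they may be too narrow. The share rose with the strength of a pair. Ranked by the authors' p-value, 80.6% of the strongest 10% of naive pairs were also listed for plasma, against 12.7% of the weakest 10%. In the plasma list the strongest 10% were shared at 78.4% and the weakest at 15.2%. The strong end of each list was thus mostly common to both cell types, and the weak end was mostly listed for 1 of them.

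**Figure D1:**
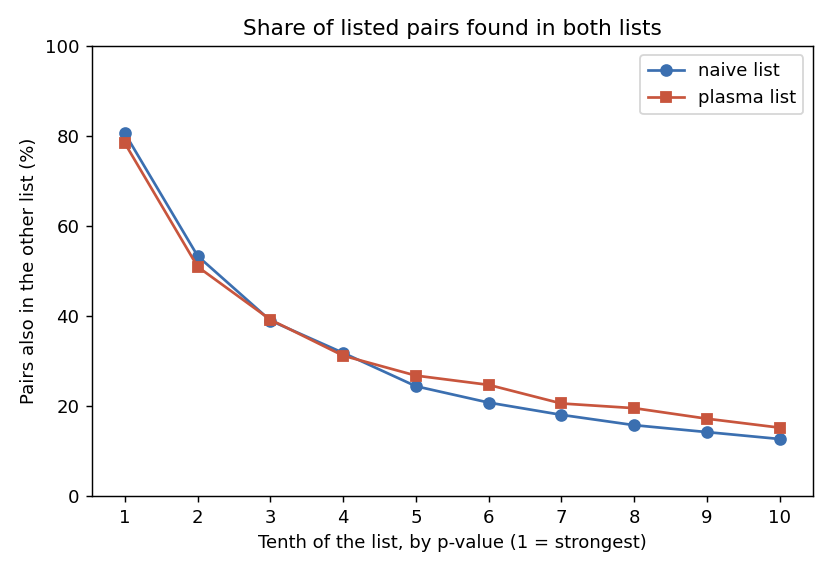
The x axis gives 10 equal parts of each list ranked by p-value, from the strongest (1) to the weakest pairs (10), and the y axis the percent of pairs that were also in the other list, with points for the naive (circles) and plasma (squares) lists. Both lines fall from about the same height, 80.6% in naive and 78.4% in plasma, to 12.7% and 15.2%.

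A member had a median of 22 read pairs in naive (range 6 to 153) against 5.59 expected by the authors' background model, and a median of 17 in plasma (range 6 to 127) against 4.37 expected. Observed over expected reads had a median of 4.14 in naive (2.52 to 42.9) and of 4.03 in plasma (2.51 to 50.5). Pairs listed for naive alone had a median of 3.47 there, and pairs listed for plasma alone 3.84. Both lists end at a p-value of 0.001 and a Z-score of 1. The 175 members closest to that limit of p in at least 1 list had a median of 3.15 over expected in naive and 3.16 in plasma. Pairs outside a list have no entry there. In the balanced contact maps, which cover every pair, pairs of the naive list alone had a median of 4.04 times the mean signal between autosomes in naive and still 1.96 times that mean in plasma. Pairs of the plasma list alone had 4.22 times the mean in plasma and 1.84 times in naive, and members had 4.99 and 4.65 times the mean in naive and plasma.

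Within the members, the ratio of plasma over naive observed over expected reads was close to 1, with a median log2 ratio of -0.03 and middle quartiles from -0.37 to 0.25. At least 1.5-fold higher in plasma were 1272 members (7.95%), and at least 1.5-fold lower were 2308 (14.4%). The other 12411 lay between. Given the read pairs behind each ratio, the exact 95% counting interval lay above 0 for 294 of the 15991 members and below 0 for 1072. There was no adjustment for the number of pairs. Among so many pairs, 95% intervals exclude 0 for some without any difference. Neither count is therefore a number of pairs shown to differ. The log2 values over expected in the naive and plasma libraries had a Pearson correlation of 0.52 across the 15991 members, which share bins and the listing limit.

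**Figure D2:**
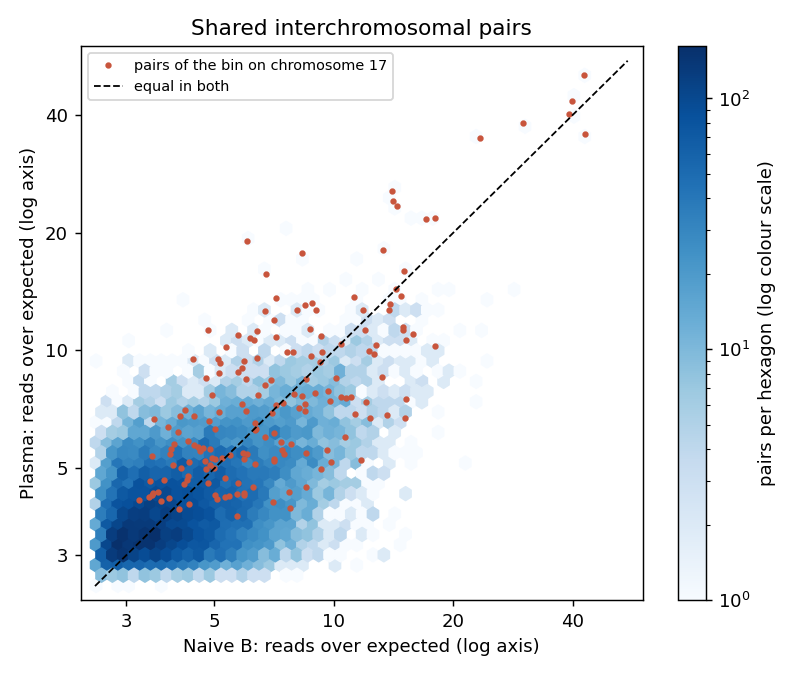
Observed over expected reads of each of the 15991 shared pairs in naive B (x axis) and plasma (y axis), both on log axes; the colour of a hexagon gives the number of pairs in it, red points are the pairs of 1 bin on chromosome 17, and the dashed line marks equal values. Most pairs lie near the medians of 4.14 and 4.03, a tail reaches higher values in naive than in plasma, and the points of the chromosome 17 bin hold the upper right corner.

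Members were concentrated in few bins. Of the 2417 mapped bins, 1309 had at least 1 shared partner and 1108 had none. The median bin with a partner had 5, and 290 bins had just 1. At the other end, 120 bins, 4.96% of those mapped, had at least 100 shared partners each and together held 53.1% of the ends of all members. These dense bins met each other: of 6685 possible pairs between dense bins on different chromosomes, 5067 (75.8%) were members, 91.2% were in the naive list and 79.1% in the plasma list. Pairs with 2 dense bins had a median of 5.62 over expected in naive and 4.77 in plasma, pairs with 1 dense bin 3.89 and 3.79, and pairs with none 3.55 and 3.81. The median log2 ratio of plasma over naive was -0.23 for pairs with 2 dense bins, -0.03 with 1 and 0.10 with none. At least 1.5-fold lower in plasma were 24.5% of the pairs with 2 dense bins and 4.30% of the pairs with none. Since dense bins were defined by the members, these values describe the network and test nothing. The part of the listing limit in these ratios was not tested.

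The bin with most shared partners was on chromosome 18 (35000001 to 36000000, build mm9, as all positions here). It had 390 partners in naive and 306 in plasma, of which 245 were the same bins, on all 18 other autosomes. Its pairs were of moderate strength, with a median of 4.23 over expected in naive and 4.45 in plasma. The next 2 were on chromosome 4 (134000001 to 135000000, 216 shared partners) and chromosome 3 (89000001 to 90000000, 214 shared partners). The chromosome 4 bin had a median of 6.03 over expected in naive and 4.80 in plasma, and the chromosome 3 bin 6.42 and 4.90. With 200 shared partners each followed a bin on chromosome 15 (80000001 to 81000000), which holds Atf4 by its approximate position, and a bin on chromosome 16 (32000001 to 33000000). Atf4 encodes a transcription factor of the stress responses to unfolded proteins and lack of amino acids. The remaining 5 of the 10 leading bins had 187 to 199 partners. They were the neighbours of the chromosome 4, 3 and 15 bins (chromosome 4, 133000001 to 134000000; chromosome 3, 88000001 to 89000000; chromosome 15, 81000001 to 82000000), a second bin of chromosome 16 (17000001 to 18000000) and a bin on chromosome 5 (123000001 to 124000000).

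All 41 possible pairs among these 10 bins were members, against 75.8% of the possible pairs between dense bins. The 10 were picked for their many members, so this count is a description and tests nothing. Observed over expected reads of the 41 pairs ran from 3.74 to 21.3 in naive, with a median of 9.34. In plasma they ran from 4.77 to 15.2, with a median of 8.81. The highest in naive joined the chromosome 3 bin that starts at 88000001 with the chromosome 5 bin, at 21.3 over expected, and it had 8.81 in plasma. The highest in plasma joined the chromosome 4 bin that starts at 134000001 with the same chromosome 5 bin, with 72 read pairs in naive (13.2 over expected) and 61 in plasma (15.2 over expected). The chromosome 18 bin met the chromosome 3 bin that starts at 88000001 with 27 read pairs in naive (6.15 over expected) and 42 in plasma (11.95 over expected). Its strongest naive partner was a chromosome 9 bin (65000001 to 66000000), with 49 read pairs in naive (8.84 over expected) and 39 in plasma (8.996 over expected). For the Atf4 bin the strongest naive partner was the chromosome 3 bin that starts at 88000001, with 81 read pairs in naive (16.6 over expected) and 36 in plasma (9.49 over expected). Over the members of each bin, the median log2 ratio was below 0 for 8 of the 10 bins, lowest at -0.43 for the chromosome 3 bin that starts at 88000001, and above 0 for the chromosome 18 bin (0.08) and the chromosome 16 bin that starts at 17000001 (0.11).

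Dense bins were often neighbours and fell into 59 stretches, 14 of them with 3 or more bins. The longest covered 8 bins of chromosome 17 (24000001 to 32000000), with up to 161 shared partners per bin. Next in length were 6 bins of chromosome 4 (132000001 to 138000000, up to 216 partners) and 5 bins near the end of chromosome 11 (116000001 to 121000000, up to 125 partners). Stretches of 4 bins lay on chromosome 15 (78000001 to 82000000, with the Atf4 bin), chromosome 2 (29000001 to 33000000), chromosome 5 (121000001 to 125000000 and 31000001 to 35000000) and chromosome 11 (75000001 to 79000000).

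Open chromatin, a readout of other libraries that the rule did not use, followed the number of shared partners. Bins with no shared partner had a median of 6 ATAC peaks in naive and 5 in plasma. Bins with 1 to 9 partners had 9 and 8, bins with 10 to 49 had 19 and 21, bins with 50 to 99 had 22 and 27, and dense bins had 28 and 33 peaks in naive and plasma. All mapped bins had medians of 10 and 9, and all bins with a shared partner 14 and 14. Dense bins had from 2 to 60 peaks in naive and from 1 to 72 in plasma, so their range overlapped that of bins with no partner (0 to 43 and 0 to 35). The lowest dense bin in both libraries was 1 bin of chromosome 17, described further on. Across 2417 bins the number of shared partners had a Spearman correlation of 0.41 with naive peaks and 0.44 with plasma peaks. Neighbouring bins are not independent points. The authors' total reads per bin moved the same way, from a median of 26645 in naive and 28045 in plasma for bins with no partner to 44089 and 43957 for dense bins, and the part of depth in the relation was not tested. More peaks in plasma than in naive were counted in 102 of the 120 dense bins, against 945 of all 2417 mapped bins (39.1%), and fewer in 12, against 1097 (45.4%). Among bins with no shared partner, 338 had more peaks in plasma and 583 had fewer. The deposited peak lists held 28614 autosomal peaks in naive and 29405 in plasma.

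**Figure D3:**
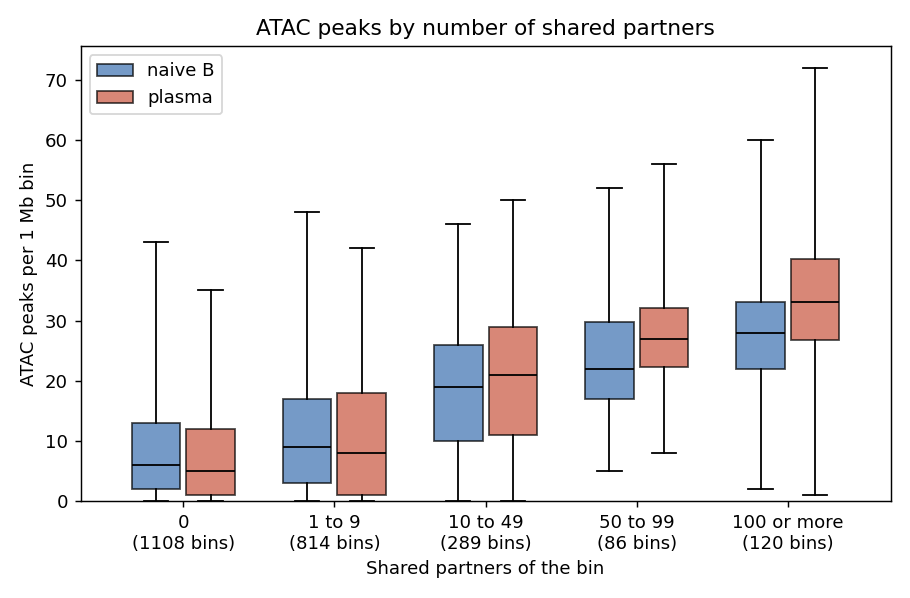
ATAC peaks per 1 Mb bin (y axis) for bins grouped by their number of shared partners (x axis), in naive B (blue) and plasma (red); boxes span the quartiles, the line is the median and whiskers reach the lowest and highest bin. Medians rise from 6 and 5 peaks with no partner to 28 and 33 with 100 or more, and in the 3 upper classes the plasma median is the higher one.

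The compartment component, computed from contacts within each chromosome, was scaled to its SD and given its sign by the ATAC peaks, so that values above 0 mark the A compartment. It comes from the same TCC libraries but from other read pairs than the members. Of 2396 bins with a value, 47.5% were in A in naive and 42.3% in plasma. Of the 120 dense bins, 119 were in A in both maps, the exception being the same chromosome 17 bin, and their median component was 1.12 SD in naive and 1.17 SD in plasma. Of bins with no shared partner, 31.9% were in A in naive and 25.02% in plasma. Most members joined A with A, at 90.2% in the naive map and 89.2% in the plasma map. Both bins were in B in 6.52% and 7.44% of members, below the 27.5% and 33.3% of all possible pairs. An A bin met a B bin in 3.23% of members in naive and in 3.41% in plasma, while 49.9% and 48.8% of all possible pairs were of that kind. Pairs listed for naive alone were both in A at 70.03% in the naive map, and pairs listed for plasma alone at 48.8% in the plasma map, against 22.6% and 17.9% of all possible pairs.

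The chromosomes held very different numbers of members. Per mapped bin, chromosome 19 had 30.6, chromosome 11 had 29.5, chromosome 17 had 26.1, chromosome 15 had 19.8 and chromosome 2 had 16.5 shared pairs. At the low end were chromosome 14 with 7.13, chromosome 1 with 6.91 and chromosome 13 with 5.51 per bin. Chromosome 11 had 14 dense bins, chromosome 17 had 13 and chromosome 2 had 12, while chromosome 13 had 1. Members made up 44.1% of the plasma pairs of chromosome 19 and 27.0% of its naive pairs. For chromosome 1 the order turned, with 20.4% of its plasma pairs and 30.7% of its naive pairs shared. Across the 19 autosomes, shared pairs per bin had a Spearman correlation of 0.54 with naive ATAC peaks per bin, 0.70 with plasma peaks per bin and -0.33 with the number of mapped bins, given as a description over chromosomes of the same libraries.

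Every one of the 171 pairs of autosomes held members, with a median of 4.64 per 1000 possible bin pairs. The densest were chromosomes 17 with 19 (35.4 per 1000), 11 with 19 (35.2), 11 with 17 (30.1), 15 with 19 (29.7) and 11 with 15 (22.7). These 5 had lower values in plasma: their median log2 ratios ran from -0.39 for 11 with 19 to -0.28 for 11 with 17. The sparsest were chromosomes 1 with 18 (0.879 per 1000), 1 with 13 (0.917), 10 with 13 (1.20), 7 with 13 (1.47) and 8 with 13 (1.52). Chromosomes 19, 11, 17 and 15 thus met each other often, and chromosomes 13 and 1 took part in few shared pairs for their size (650 and 1340 in all, against 1804 for chromosome 19, which has 59 mapped bins to their 118 and 194).

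**Figure D4:**
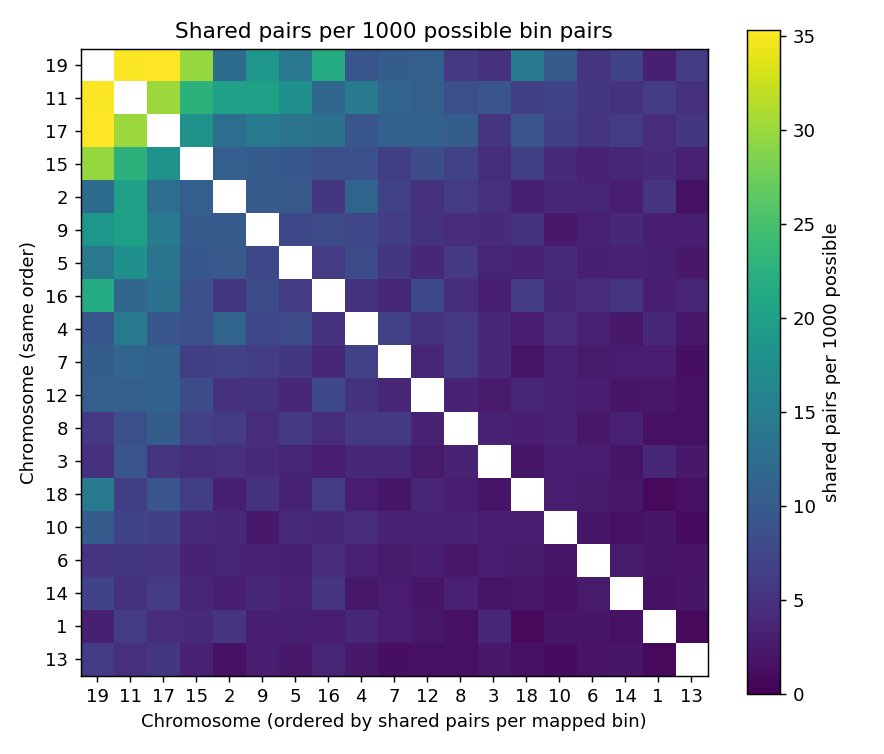
Shared pairs per 1000 possible bin pairs for each pair of autosomes (colour), with chromosomes on both axes ordered by their shared pairs per mapped bin and the diagonal left blank. The brightest cells, up to 35.4 per 1000, join chromosomes 19, 11, 17 and 15 in the upper left corner, and the cell of chromosomes 1 and 13, in the opposite corner, has 0.917.

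Pairs that joined like chromosome ends went the other way from the dense bins. Where both bins lay in the first 12 Mb, the centromere end in the mouse, there were 465 members, 3.36% of the possible pairs of that kind against 0.58% of all possible pairs. Where both lay in the last 12 Mb there were 554 members, 2.25% of those possible. First with last ends gave 48 members, 0.13% of those possible. The median log2 ratio of plasma over naive was 0.20 for pairs of first ends, 0.31 for pairs of last ends, -0.46 for first with last ends and -0.09 for pairs with neither bin at an end. At least 1.5-fold higher in plasma were 31.2% of the pairs of last ends and 5.77% of the pairs with neither bin at an end. A member has to pass the listing limit in both libraries, which cuts off low values. The weakest 10% of the lists had medians of 3.00 over expected in naive and 3.22 in plasma. Pairs of last ends had medians of 3.27 in naive and 4.28 in plasma. The part of the limit in these ratios was not tested. The shared pairs of like ends were also few beside those listed for plasma alone, which numbered 2107 for first ends and 3067 for last ends (477 and 518 for naive alone).

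One bin stood apart from this pattern. The chromosome 17 bin at 39000001 to 40000000 had 333 partners in naive and 270 in plasma, of which 173 were shared, and none of the 173 was a dense bin. It had 2 ATAC peaks in naive and 1 in plasma, a compartment component of -1.02 and -1.08 SD, and total reads of 18323 and 16863, below the medians of bins with no partner. Its members had medians of 6.72 over expected in naive and 7.00 in plasma. It took part in 9 of the 10 strongest members, ranked by the geometric mean of both libraries among the 4535 members with at least 20 read pairs in both. The strongest joined it to a bin of chromosome 11 (108000001 to 109000000), with 143 read pairs in naive (42.8 over expected, interval 36.03 to 50.36) and 127 in plasma (50.5 over expected, 42.1 to 60.1). Next came the last bin of chromosome 19 (61000001 to 62000000), with 65 read pairs in naive (39.8 over expected) and 55 in plasma (43.4 over expected). The counting intervals of the naive and plasma values overlapped in both pairs. How reads from repeated sequence were placed is not given in the sources used, and whether such reads, or sequence misplaced in the mm9 assembly, add to the counts of this bin was not tested, so its values are read counts and need not all be contacts.

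Of its 173 shared partners, 144 (83.2%) lay on 5 chromosomes, 12 (48 partners), 15 (28), 18 (28), 19 (23) and 16 (17), which hold 19.9% of the mapped bins outside chromosome 17. Per 100 mapped bins that was 40.3 partners on chromosome 12, 38.98 on 19, 31.8 on 18, 27.7 on 15 and 17.7 on 16, and at most 4.24 on any other autosome. In the naive list 263 of its 333 partners were on these chromosomes, and in the plasma list 163 of 270. In the first 12 Mb lay 40 of the 173 (23.1%), against 171 of all 2417 mapped bins (7.07%). On those 5 chromosomes it was 28 of the 144 (19.4%), against 45 of their 463 mapped bins (9.72%), and on the other chromosomes 12 of 29. Of its 10 strongest shared partners, 4 lay in the first 12 Mb. In the naive map 44 of the 173 were in A. These 5 chromosomes are the ones described as carrying ribosomal RNA gene arrays in this strain, which is background and not a result. No file used here measures those arrays, and a relation with them was not tested. The bin was singled out after its values had been seen.

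**Figure D5:**
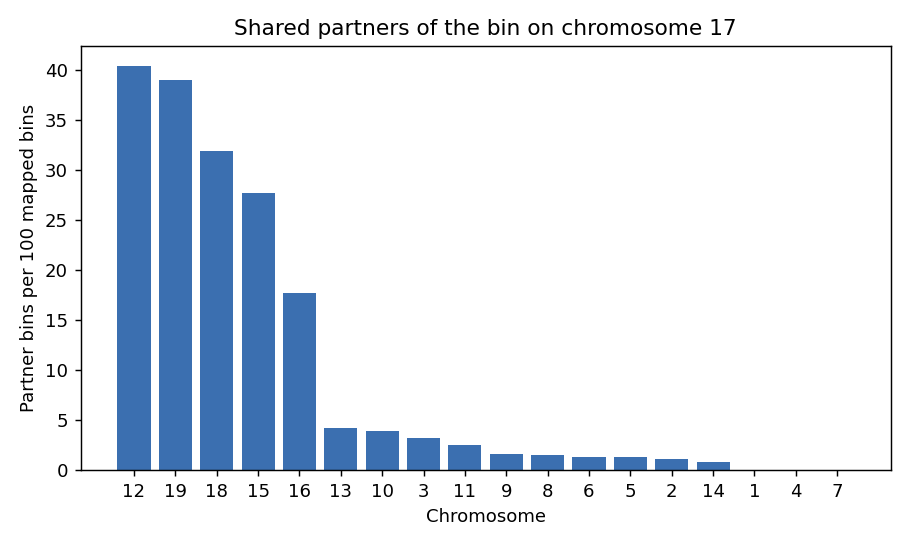
Shared partner bins of the chromosome 17 bin per 100 mapped bins (y axis, bars from 0) for each other autosome (x axis), ordered from high to low. Chromosomes 12, 19, 18, 15 and 16 have 17.7 to 40.3 partners per 100 bins, and no other autosome exceeds 4.24.

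Members with both bins in B in the naive map numbered 1043, and 914 without the chromosome 17 bin. Of those 914, 152 (16.6%) joined 2 of the same 5 chromosomes, against 3.21% of the possible pairs of B bins. The B bins with most such pairs were on chromosome 19 (19000001 to 20000000, 42 of its 44 shared partners) and chromosome 16 (6000001 to 7000000, 30 of 31, and 9000001 to 10000000, 28 of 29). The chromosome 19 bin had 1 ATAC peak in each cell type, and those chromosome 16 bins had 0. All 1043 pairs of B bins, those of the chromosome 17 bin included, had medians of 4.46 over expected in naive and 4.76 in plasma. Pairs of A bins had 4.13 and 3.97.

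Without the chromosome 17 bin, the strongest member joined chromosome 7 (134000001 to 135000000) with chromosome 10 (80000001 to 81000000), both dense bins. It had 153 read pairs in naive (28.2 over expected, interval 23.9 to 33.0) and 59 in plasma (14.7 over expected, 11.2 to 18.9). The next joined the first mapped bins of chromosomes 16 and 18 (3000001 to 4000000 on both), with 28 read pairs in naive (15.5 over expected) and 36 in plasma (21.8 over expected). The third joined chromosome 3 (88000001 to 89000000) with chromosome 5 (124000001 to 125000000), with 98 read pairs in naive (24.2 over expected) and 43 in plasma (13.0 over expected). Intervals of the 2 libraries did not overlap for the first and the third of these pairs, with naive the higher, and they overlapped for the second.

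Among members with at least 20 read pairs in both, 355 were at least 1.5-fold higher in plasma and 689 at least 1.5-fold lower. The largest gain joined chromosome 8 (124000001 to 125000000) with chromosome 11 (118000001 to 119000000), with 21 read pairs in naive (2.52 over expected) and 59 in plasma (9.59 over expected), a ratio of 3.80. The second joined bins near the ends of chromosomes 2 (180000001 to 181000000) and 4 (147000001 to 148000000), with 20 read pairs in naive (3.08 over expected) and 51 in plasma (10.8 over expected). The third joined the bin that holds Xbp1 (chromosome 11, 5000001 to 6000000) with the chromosome 17 bin at 5000001 to 6000000, with 21 read pairs in naive (3.21 over expected) and 54 in plasma (9.59 over expected), a ratio of 2.99. Its neighbour on chromosome 11 (4000001 to 5000000) gave the next gain with the same chromosome 17 bin, a ratio of 2.72. These gains lie in the end windows on at least 1 side.

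The largest loss joined chromosome 11 (120000001 to 121000000) with chromosome 19 (4000001 to 5000000), with 115 read pairs in naive (13.0 over expected) and 20 in plasma (2.95 over expected), 4.38-fold lower. The next joined chromosome 7 (134000001 to 135000000) with chromosome 19 (5000001 to 6000000), with 139 read pairs in naive (22.0 over expected) and 24 in plasma (5.09 over expected), 4.31-fold lower. A chromosome 15 bin (78000001 to 79000000) with chromosome 19 (6000001 to 7000000) fell from 125 read pairs (15.6 over expected) to 23 (4.38 over expected). Of the 5 largest losses, 4 had an end on chromosome 19 and the fifth joined chromosomes 7 and 10. Chromosome 19 took part in 1804 of all 15991 members, and these had a median log2 ratio of -0.14. The 95% counting interval of the log2 ratio excluded 0 for each of the 5 largest gains and 5 largest losses, which were picked for their size.

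The study's title names a hub between chromosomes in the unfolded protein response, the program by which secretory cells enlarge the endoplasmic reticulum. Of its genes, Atf4 lay in a bin with 200 shared partners, Xbp1 in a bin with 115, Hspa5, which encodes the chaperone BiP, in a bin with 107 (chromosome 2, 34000001 to 35000000), and Ern1, which encodes the sensor kinase that activates Xbp1, in a bin with 98. For each of these bins, at least 94.8% of mapped bins had fewer partners. Gene positions are approximate, and a 1 Mb bin holds other genes too. Pax5, the B cell identity factor that plasma cells switch off, lay in a bin with 100 shared partners (chromosome 4, 44000001 to 45000000), close to the number for Hspa5. Bins of other B cell and plasma cell factors had fewer: Ebf1 31, Bach2 30, Prdm1 7, Irf4 5 and Bcl6 5. Still, the share of mapped bins with fewer partners was 88.7% for Ebf1, 88.6% for Bach2, 74.9% for Prdm1 and 70.4% for Irf4 and Bcl6. Of the antibody loci, 1 bin of the heavy chain locus on chromosome 12 (114000001 to 115000000) had 62, the 3 bins that follow it had 0, 0 and 3, the lambda light chain bin had 15, and the 4 kappa light chain bins had none. Bins of Ell2 and of Jchain, the gene of the antibody joining chain, had none either. Total naive reads were 7482 in the heavy chain bin at 115000001, 8993 to 20454 in kappa bins with a value, 16786 for Jchain and 19717 for Ell2. The median over all mapped bins was 31082. The heavy chain bin at 116000001 and the kappa bin at 69000001 had no listed pair and so no total. A count of 0 in such bins need not mean few contacts.

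Members among these bins numbered 12, of which 9 had the lower value in plasma. The number to be expected from the partner counts of these bins was not computed, so 12 cannot be called many or few. Of all 15991 members, 46.97% had the higher value in plasma. The Ern1 bin met the Atf4 bin with 61 read pairs in naive (10.1 over expected) and 21 in plasma (4.12 over expected), a log2 ratio of -1.29 (counting interval -2.08 to -0.55). The heavy chain bin met the Atf4 bin with 38 read pairs in naive (7.73 over expected) and 13 in plasma (3.62 over expected), a log2 ratio of -1.10 (-2.13 to -0.15). The Pax5 bin met the Xbp1 bin with 19 read pairs in naive (3.41 over expected) and 31 in plasma (6.46 over expected), a log2 ratio of 0.92 (0.05 to 1.83). In the other 9 pairs the interval included 0, such as Hspa5 with Xbp1, at 23 read pairs in naive (4.35 over expected) and 22 in plasma (4.73 over expected), and Pax5 with Prdm1, at 19 in each (4.31 and 4.71 over expected). All 3 contacts of the Atf4 bin with Hspa5, Xbp1 and Ern1 were thus in both lists, with the lower value in plasma each time, although the interval excluded 0 only for Ern1 among them. That direction was not particular to these genes. The 200 members of the Atf4 bin had a median log2 ratio of -0.24, and all pairs with 2 dense bins -0.23. The bins of Ebf1 and Bach2, factors of the B cell program, both met a chromosome 16 bin (24000001 to 25000000): Ebf1 with 50 read pairs in naive (8.44 over expected) and 19 in plasma (3.62), and Bach2 with 45 (7.79) and 15 (3.25). Over all members, the median log2 ratio was -0.15 for the Ebf1 bin and -0.007 for the Bach2 bin. At least 1.5-fold lower in plasma were 9 of 31 members for Ebf1 and 4 of 30 for Bach2, and 1 member of each was at least 1.5-fold higher.

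In TPM, Atf4 had 325 in naive and 441 in plasma, Hspa5 314 and 1483, Ern1 5.89 and 22.9, and Pax5 346 and 15.7. RNA of Hspa5 and Xbp1 was thus several times higher in plasma and that of Pax5 lower. The members of all these bins had median log2 contact ratios between -0.29 for Ern1 and 0.03 for Hspa5. Pairs listed for 1 cell type alone do not enter these medians, which therefore cannot show whether contacts followed RNA. The Pax5 bin had 257 partners in naive and 167 in plasma, of which 100 were shared. For the Hspa5 bin these numbers were 184, 181 and 107. A relation of contacts with RNA was not tested.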

How the data were processed

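One TCC, 1 ATAC-seq and 1 RNA-seq library per cell type were used, grouped by their titles; ChIP-seq samples were not analysed here. The submitters' processing notes name build mm9 and, with no role or order, kallisto, MACS 1.4, HOMER, Bowtie, Picard and TopHat. Other settings are not given in the sources used. The deposited interaction lists give read pair counts and total read counts per bin, the authors' expected reads (a signal of their background model, unrounded), a Z-score, the natural log of a p-value, and, per the file headers, a false discovery rate based on it (here called a corrected p-value). The deposited contact maps hold a signal the authors balanced to equal row sums, in bins of 500 kb and 2 Mb. Each deposited ATAC peak has 1 score from the authors. Per the file headers, each deposited RNA file gives TPM and estimated counts by transcript; TPM was summed per gene and estimated counts were not used.

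Observed over expected is the count over the authors' expected reads, so any bias of that model passes into it. Peaks were assigned to bins by their midpoint. Balanced signal is the mean over the 500 kb cells of a bin pair over the mean between autosomes. The component is the first eigenvector of the correlation of distance-normalised contacts per chromosome. Intervals are exact (Clopper-Pearson for shares, Poisson for reads, binomial for ratios of 2 libraries, level 95%); read pairs carry no molecular identifiers. Named were the 10 bins with most partners and their 3 strongest partners, the 10 strongest pairs with at least 20 read pairs in both, the 5 largest and smallest ratios, the 5 densest and sparsest chromosome pairs, and bins of 15 loci at approximate mm9 positions known beforehand, since the annotation here is of another build; for the same reason no sequence is printed. The members, lists and loci were chosen with earlier results of these data known. List overlap, partner counts, ratios and the component were tested on simulated data. With 1 library per group no test was run. Scripts ran in Python 3.11.15 with numpy 2.4.6, pandas 2.3.3, scipy 1.17.1 and matplotlib 3.10.9. The value of 1 marker gene is not reported here.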

Additional observations from a re-analysis of the deposited data

Results flagged for a closer look

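Pairs with a sex chromosome were outside the comparison of autosomes, and 148 of them were in both lists, 92 with a bin of chromosome Y and 56 with chromosome X alone. The pair with most reads joined chromosome 3 (25000001 to 26000000) with chromosome Y (2000001 to 2902512). It had 243 read pairs in naive against 6.39 expected and 183 in plasma against 3.63 expected, more in both libraries than any member. It drew attention as a strong signal in data the report does not use, and there is no control library to set it against. Whether reads from repeated sequence, or sequence misplaced in the mm9 assembly, add to these counts was not tested, so they need not all be contacts.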

How the results depend on the processing

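No paired analysis was possible because each group had 1 library. The count of 15991 shared pairs was 11630 with a false discovery rate of at most 0.01 in both lists, 4535 with at least 20 read pairs in both, 10510 without the first and last 12 Mb, and 31013 where a naive pair counted as shared with the same or next bins. Next bins raised the shared part of the naive list to 60.3% and of the plasma list to 54.1%, and lists of equal length gave 31.9% for both. Median observed over expected reads in naive and plasma were 3.59 and 3.41 with 1 read added to both terms, 5.74 and 5.42 with at least 20 read pairs, and 4.04 and 3.96 without the 10 leading bins. The median log2 ratio was -0.18 in the balanced 2 Mb maps, -0.10 in the balanced 500 kb maps (added after seeing the data) and -0.090 without chromosome ends. Members at least 1.5-fold higher and lower numbered 355 and 689 with at least 20 read pairs, and 1146 and 2948 in the balanced 500 kb maps (also added). Of the 10 leading bins, 6 were kept when ranked by the sum of reads above expected and 9 with the stricter false discovery rate. Median peaks of bins with a shared partner over all mapped bins were 1.4 in naive and 1.56 in plasma, 1.75 in both for peaks above the median score, and 2.40 and 3.22 with bins weighted by partners. Their median component was 0.52 SD in naive and 0.33 SD in plasma, and in 2 Mb maps 0.33 and -0.00699 SD, a change of sign in plasma, so the median bin with a partner cannot be placed in A or B there. Pairs with both bins in A were 88.7% and 87.9% with components above 0.25 SD, and 91.2% and 90.1% without the chromosome 17 bin (added after seeing the data). Each change beyond that from fewer or other pairs was not tested for its cause. Depth limits single pairs most: members had as few as 6 read pairs, and the expected reads are the authors' own.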

Other observations

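Bins rich in open chromatin did not all join the shared network. With at least 22 naive ATAC peaks, the lower quartile of the dense bins, 443 mapped bins were as rich as those, and 96 of them were dense. Another 166 had 10 to 99 shared partners, 118 had 1 to 9, and 63 had none. The 63 had medians of 26 peaks in naive and 24 in plasma, and the 96 had 29 and 36.5. Fewer peaks in plasma than in naive were counted in 41 of the 63 and in 9 of the 96, against 1097 of all 2417 mapped bins (45.4%). Both groups were picked by their naive peaks, which by itself can raise the number of bins with fewer in plasma. Median total reads per bin were 32424 in naive for the 63 and 44031 for the 96, and the median component was 0.62 and 1.12 SD there. The bin of the kappa light chain locus at 69000001 to 70000000 of chromosome 6, with 37 peaks in naive and 4 in plasma, was among the 63. It was in neither list and so had no total read count to judge its depth by. The part of depth in this difference was not tested.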
